A study of Mus musculus with 4 samples.

Results

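Genes that respond to cyclic AMP through the transcription factor CREB, together with the nuclear receptors of the NR4A family, were examined in progenitor cells of mouse subcutaneous tissue after Cre infection to delete Gnas. The set was given by name and holds 10 of the 23930 genes in the table: Nr4a1, Nr4a2, Nr4a3, Crem, Creb1, Per1, Sik1, Areg, Gem and Ppargc1a. Gnas encodes the stimulatory G protein alpha subunit, which switches on adenylyl cyclase. The mutant libraries came from C57BL/6 cells with a floxed Gnas gene infected with an adenovirus carrying Cre (Ad-Cre, labelled Gnas-/-), and the control libraries from floxed cells infected with Ad-GFP (labelled wild type). All cells then spent 7 days in osteogenic medium, and there were 2 libraries per group. Cre came from a virus and not from a cell type's promoter, so every infected cell type of the culture could recombine. The virus differs between the groups together with the genotype. The labels give no age, sex or number of mice and do not state that replicates were separate animals or cultures. The p-values therefore rest on a spread that may be technical in part or, between the mutants, in whole.

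Cyclic AMP activates protein kinase A, which phosphorylates CREB on DNA elements called cyclic AMP response elements (CREs), and CRTC coactivators then join it. The targets include fast, short-lived genes such as the NR4A receptors and several brakes on the pathway itself: Sik1 encodes a kinase that keeps CRTC proteins out of the nucleus, and Crem encodes repressor forms that occupy CREs. In cells of the bone lineage, parathyroid hormone and prostaglandin E2 act through this pathway.

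Promoter sequence separates the 3 NR4A genes from most others. The sequences of Nr4a1, Nr4a2, Nr4a3 and Areg are printed because they hold the most CRE motifs among the 7 genes of the set with a promoter window. The motifs searched on both strands were the CRE core TGACG and the full element TGACGTCA, in which 2 cores overlap and which was counted as 1 match. Each window runs from 250 bases before to 50 bases after a RefSeq transcription start (build GRCm38.p6), and 7 of the 10 genes had one. Crem, Sik1 and Gem had none, so their promoters were not searched. Capitals mark the motif matches, and sequences read 5′ to 3′ on the strand of the gene. The windows lie at chr15:101266596-101266895 (plus strand) for Nr4a1, chr2:57123954-57124253 (minus strand) for Nr4a2, chr4:48045055-48045354 (plus strand) for Nr4a3 and chr5:91139349-91139648 (plus strand) for Areg.
Nr4a1: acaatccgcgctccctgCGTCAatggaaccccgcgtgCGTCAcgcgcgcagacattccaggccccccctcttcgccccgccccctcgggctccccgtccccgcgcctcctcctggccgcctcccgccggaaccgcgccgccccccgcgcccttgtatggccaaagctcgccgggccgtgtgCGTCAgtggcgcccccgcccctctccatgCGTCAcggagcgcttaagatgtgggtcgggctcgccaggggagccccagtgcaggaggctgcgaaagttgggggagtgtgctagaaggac
Nr4a2: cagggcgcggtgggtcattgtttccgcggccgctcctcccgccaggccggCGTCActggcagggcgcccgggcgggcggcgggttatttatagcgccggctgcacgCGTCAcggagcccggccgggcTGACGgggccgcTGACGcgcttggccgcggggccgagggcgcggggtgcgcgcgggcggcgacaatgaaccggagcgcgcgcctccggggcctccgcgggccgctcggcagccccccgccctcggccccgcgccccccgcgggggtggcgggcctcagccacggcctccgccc
Nr4a3: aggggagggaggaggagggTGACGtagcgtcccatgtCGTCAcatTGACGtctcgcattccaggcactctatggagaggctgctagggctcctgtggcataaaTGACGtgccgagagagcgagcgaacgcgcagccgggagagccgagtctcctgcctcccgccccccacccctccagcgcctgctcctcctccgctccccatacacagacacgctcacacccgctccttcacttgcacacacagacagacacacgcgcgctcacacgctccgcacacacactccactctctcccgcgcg
Areg: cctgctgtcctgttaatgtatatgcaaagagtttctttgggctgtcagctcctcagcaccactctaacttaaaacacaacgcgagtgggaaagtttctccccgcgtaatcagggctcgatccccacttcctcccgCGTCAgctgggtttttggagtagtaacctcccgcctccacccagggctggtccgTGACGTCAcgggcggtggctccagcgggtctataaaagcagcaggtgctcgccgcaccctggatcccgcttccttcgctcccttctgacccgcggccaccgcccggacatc
Nr4a1, Nr4a2 and Nr4a3 each held 4 matches, a number reached by 0.113% of all 32851 mouse windows (37 windows). In Nr4a1 the matches began 233, 213, 69 and 40 bases before the start, in Nr4a2 at 200, 144, 123 and 111 bases, and in Nr4a3 at 231, 213, 205 and 147 bases. Areg held 1 core at 115 bases and the full element at 61 bases before the start, and 1.79% of all windows held a full element. Ppargc1a held 1 core at 49 bases and each of the 2 Per1 windows held 1, while 20.8% of all windows held at least 1. These letters were not in the Creb1 window. A match describes letters in the window and shows no binding.

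**Figure D1:**
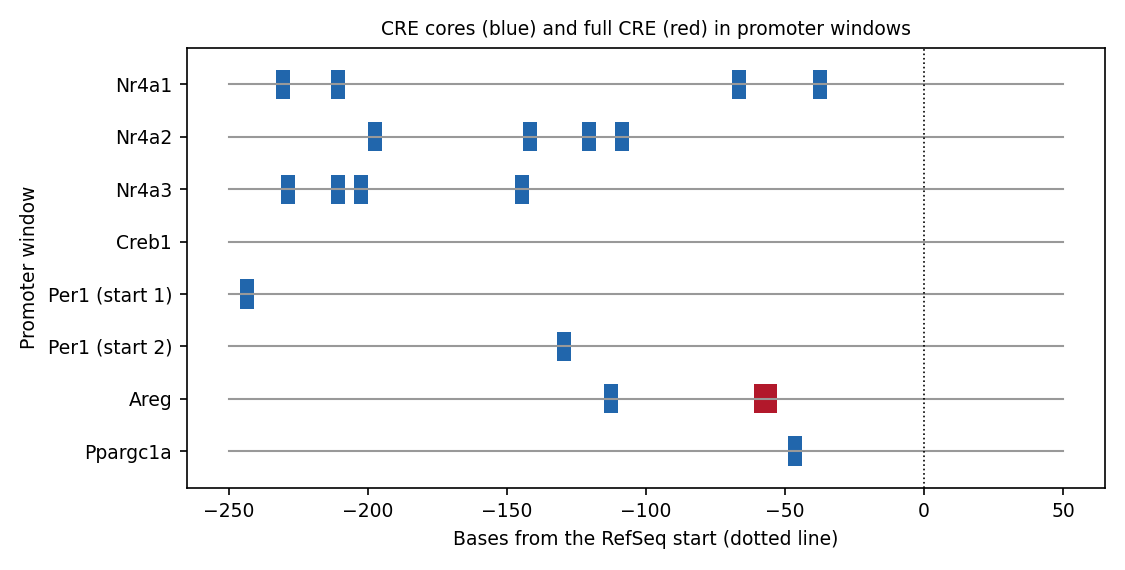
Positions of CRE cores (TGACG on either strand, blue) and the full element (TGACGTCA, red) in promoter windows, in bases from the RefSeq start (dotted line), 1 row per window. The 3 NR4A windows hold 4 cores each, and the red block is at 61 bases before the Areg start.

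The RNA was read with an amplicon panel in which 1 short target stands for each gene, and values are RPM (reads of that target scaled to a library total equal in all columns). Libraries held 13483518 to 18455811 reads, so that 3 reads, the limit that a count of 0 allows, correspond to 0.163 to 0.222 RPM (counting error only). Efficiency differs between amplicons, so levels were compared between libraries and not between genes, and 1 amplicon cannot tell the isoforms of a gene apart, such as the activator and repressor forms of Crem. No row was named Gnas, so the deletion could not be checked on the targeted gene. The 8 measured markers of stromal cells summed to 30508 and 33579 RPM in the mutants and 13810 and 16869 RPM in the controls, with none at 0 in any library. Much of these sums was the matrix gene Col1a1, at 16666 and 21009 RPM in the mutants and 5332 and 9875 RPM in the controls. Control 2 stood apart. The sum of 15 macrophage markers was 30.2 and 17 RPM in the mutants, 51.9 RPM in control 1 and 1050 RPM in control 2, and 5 of the 15 were at 0 in both mutants. Lyz2 was the highest of them, at 20.8 and 10.4 RPM in the mutants, 33.9 RPM in control 1 and 822 RPM in control 2. The sum of 5 endothelial markers was 18.3 and 36.6 RPM in the mutants, 9.97 RPM in control 1 and 84.8 RPM in control 2. Xist, expressed from the inactive X chromosome of females, stood at 395 and 419 RPM in the mutants, 165 RPM in control 1 and 0 in control 2. Ddx3y, from the Y chromosome, was read in every library, with 26.9 and 12.5 RPM in the mutants and 61.4 and 124 RPM in the controls. With Xist and Ddx3y this unlike, the 2 controls were not the same cell material, so the spread between them is not technical alone. Donor and genotype cannot be told apart here. In such bulk RNA, fewer cells of a type and less RNA per cell cannot be told apart.

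None of the CREB-responsive and NR4A genes passed the test in either direction. Of the 10, 8 reached the filter of at least 1 RPM in at least 2 libraries, and 0 of these 8 had an adjusted p below 0.05 (limma on log2(RPM + 1), Benjamini-Hochberg over 11638 genes). Among all genes tested, 2.3% passed, 1.73% as higher and 0.576% as lower in the mutants. At an unadjusted p below 0.05 there were also 0 of 8, against 17.9% of all genes tested. Count tests on whole reads called 0 of the 8 as well, where edgeR called 0.799% and DESeq2 9.37% of all genes. The median log2 fold change of the 8 was 0.13, beside 0.08 over all genes tested. The groups did not overlap in 3 of the 8, which were Crem and Gem (mutants higher) and Nr4a2 (mutants lower). Among all tested genes 51.8% had groups that did not overlap, 30.6% with the mutants higher and 21.1% with the mutants lower.

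**Figure D2:**
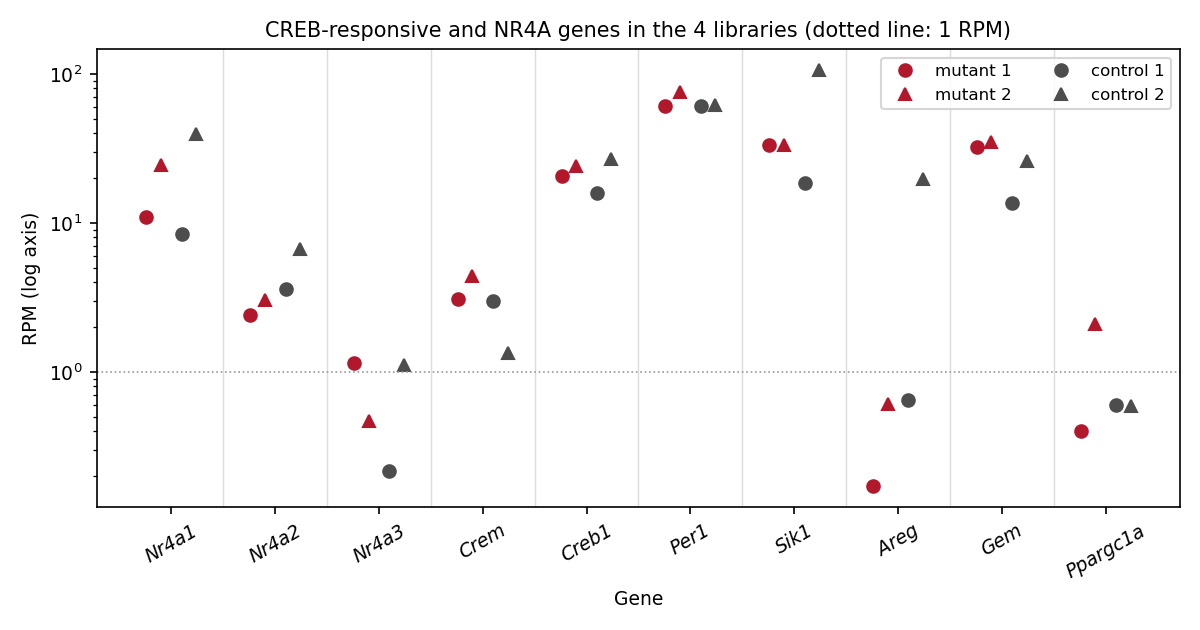
RPM on a log axis for the 10 genes, with the mutant libraries in red to the left of the control libraries in grey; circles are replicate 1, triangles replicate 2, and the dotted line is 1 RPM. Control 2 (grey triangle) is the highest point for Nr4a1, Nr4a2, Creb1, Sik1 and Areg, and the mutants are above both controls for Crem and Gem.

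The NR4A receptors are nuclear receptors that bind DNA without needing a ligand and are switched on rapidly by many signals. Nr4a1 (Nur77; chromosome 15 at 101254269 to 101274795, plus strand, GRCm38) stood at 11 and 24.4 RPM in the mutants, against 8.45 and 39.7 RPM in the controls. Both mutants were inside the range of the controls. Control 2 was 4.69 times control 1, and mutant 2 was 2.22 times mutant 1. The log2 fold change was -0.17 (SE 0.78, 95% interval -2.14 to 1.81, limma adjusted p = 0.933, n = 2 libraries per group here and below). On the linear scale of RPM + 1 that interval runs from 0.227 to 3.49 times the control level.

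Nr4a2 (Nurr1; chromosome 2 at 57106830 to 57124003, minus strand) was the NR4A gene whose groups did not overlap. It stood at 2.4 and 3.03 RPM in the mutants, against 3.58 and 6.67 RPM in the controls. The mutants were both lower, by a ratio of means of 0.53, but the lower control was close to the higher mutant, and the log2 fold change of -0.68 (SE 0.40) had an adjusted p of 0.446 by limma. Nr4a3 (NOR1; chromosome 4 at 48045153 to 48086447, plus strand) was near the filter, at 1.15 and 0.471 RPM in the mutants and 0.217 and 1.11 RPM in the controls. Those values rest on 20 and 7 reads in the mutants and 4 and 15 reads in the controls. The groups overlapped and the libraries within each group differed more than the group means did, at 0.808 RPM in the mutants and 0.665 RPM in the controls.

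Creb1 and Crem encode the factors that sit on the CREs. Creb1, the activator itself (chromosome 1 at 64532645 to 64604548, plus strand), stood at 20.7 and 24.1 RPM in the mutants, against 15.9 and 26.8 RPM in the controls. Both mutants were inside the range of the controls, and the log2 fold change was 0.11 (95% interval -0.75 to 0.96, limma adjusted p = 0.903). Its sign turned under both count tests, to -0.02 with edgeR and -0.04 with DESeq2. Crem (chromosome 18 at 3266048 to 3337748, minus strand) stood at 3.09 and 4.38 RPM in the mutants, against 2.98 and 1.33 RPM in the controls. The mutants were both above the controls, yet mutant 1 and control 1 were nearly level, with 95% counting intervals of 2.32 to 4.04 and 2.25 to 3.88 RPM. The log2 fold change of Crem was 0.62 (SE 0.42, limma adjusted p = 0.504).

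Sik1, the kinase that acts as a brake on CRTC coactivators (chromosome 17 at 31844250 to 31855804, minus strand), had a direction that depended on which control was used. It stood at 33.4 and 33.2 RPM in the mutants, against 18.6 and 106 RPM in the controls. The mutants were almost identical and lay between controls that differed 5.7-fold. With all libraries the log2 fold change was -0.42 (SE 0.79, limma adjusted p = 0.822). Without control 1 it was -1.65 and past the threshold (limma adjusted p = 0.00284, in a fit where 6.89% of all genes were called lower), and without control 2 it was 0.80 (limma adjusted p = 0.0637). A fit with 1 control takes its spread from the 2 mutants, here almost identical, and from the moderation over all genes, and assumes that the lone control varies likewise. Across all tested genes, 97.5% had controls closer to each other than those of Sik1, and 2.08% had mutants closer.

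Per1 encodes a repressor of the circadian clock whose gene responds to CREB, and lies on chromosome 11 at 69095217 to 69109960 (plus strand). It stood at 60.9 and 75.4 RPM in the mutants, against 60.5 and 61.5 RPM in the controls. Mutant 2 was the highest library, and the other libraries were nearly level. The log2 fold change was 0.15 (SE 0.22, limma adjusted p = 0.766), and its 95% interval of -0.41 to 0.71 was the narrowest of the 8, equal to 0.753 to 1.63 times the control level.

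Gem, a small GTPase that restrains voltage-gated calcium channels (chromosome 4 at 11704457 to 11714752, plus strand), stood at 32.5 and 34.8 RPM in the mutants, against 13.6 and 26.1 RPM in the controls. The mutants were close together and above both controls. Its log2 fold change was 0.80 (SE 0.37, 95% interval -0.13 to 1.73, limma adjusted p = 0.34), the smallest adjusted p of the 8. Without control 2 the change was 1.24 and passed (limma adjusted p = 0.0158, where 9.15% of all genes were called higher), and without control 1 it was 0.35 (limma adjusted p = 0.314). As for Sik1, these fits take the gene's own spread from the mutants alone.

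**Figure D3:**
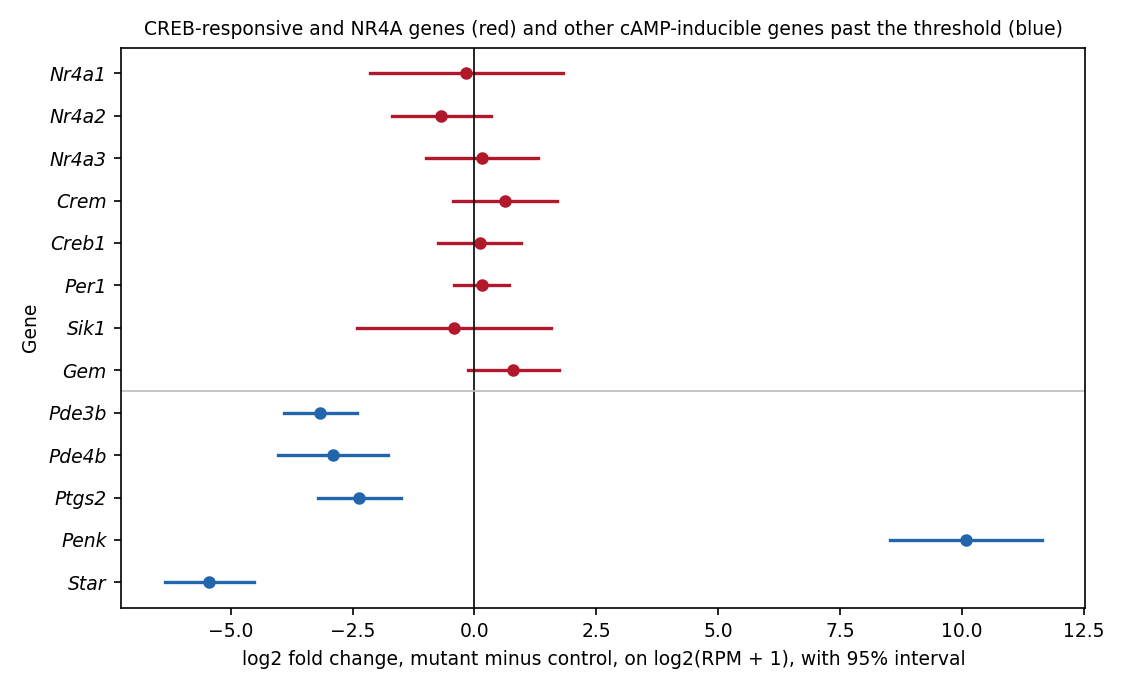
log2 fold change, mutant minus control, on log2(RPM + 1) with 95% intervals from limma, for the 8 tested CREB-responsive and NR4A genes (red) and the 5 genes of a wider cyclic AMP list that passed the threshold (blue). All 8 red intervals cross 0, and those of Nr4a1 and Sik1 are the widest among them.

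Areg and Ppargc1a did not reach the filter and were not tested in the main comparison. Areg encodes amphiregulin, a growth factor that binds the EGF receptor, and lies on chromosome 5 at 91139599 to 91148432 (plus strand). It stood at 0.172 and 0.606 RPM in the mutants (3 and 9 reads), against 0.65 and 19.7 RPM in the controls (12 and 266 reads). Only control 2 was high. The 95% counting intervals of mutant 1 (0.0354 to 0.502 RPM) and mutant 2 (0.277 to 1.15 RPM) both overlapped that of control 1 (0.336 to 1.14 RPM). With no filter on low values its log2 fold change was -2.09 (limma adjusted p = 0.56 over 19400 genes).

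Ppargc1a encodes PGC-1alpha, a coactivator that drives the making of mitochondria and is a CREB target in liver. It lies on chromosome 5 at 51454250 to 51567726 (minus strand) and stood at 0.401 and 2.09 RPM in the mutants (7 and 31 reads), against 0.596 and 0.593 RPM in the controls (11 and 8 reads). Mutant 2 was the highest library and mutant 1 the lowest. With no filter the log2 fold change of Ppargc1a was 0.38 (limma adjusted p = 0.766).

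The 2 controls differed from each other in most of these genes. Control 2 was above control 1 for 7 of the 8 tested genes (all but Crem), whereas this held for 42% of all tested genes. Of the genes below the filter it held for Areg and not for Ppargc1a. The controls were further apart than the mutants for 7 of the 8 tested genes, against 69% of all tested genes. The median distance between replicates of the 8, on log2(RPM + 1), was 0.27 between the mutants and 0.78 between the controls. The same medians over all tested genes were 0.23 and 0.43. Control 2 is also the library with the most macrophage and endothelial marker RNA given above, and the one with Xist at 0. The part of those cells, or of the donor, in the values of Nr4a1, Sik1 and Areg was not tested.

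**Figure D4:**
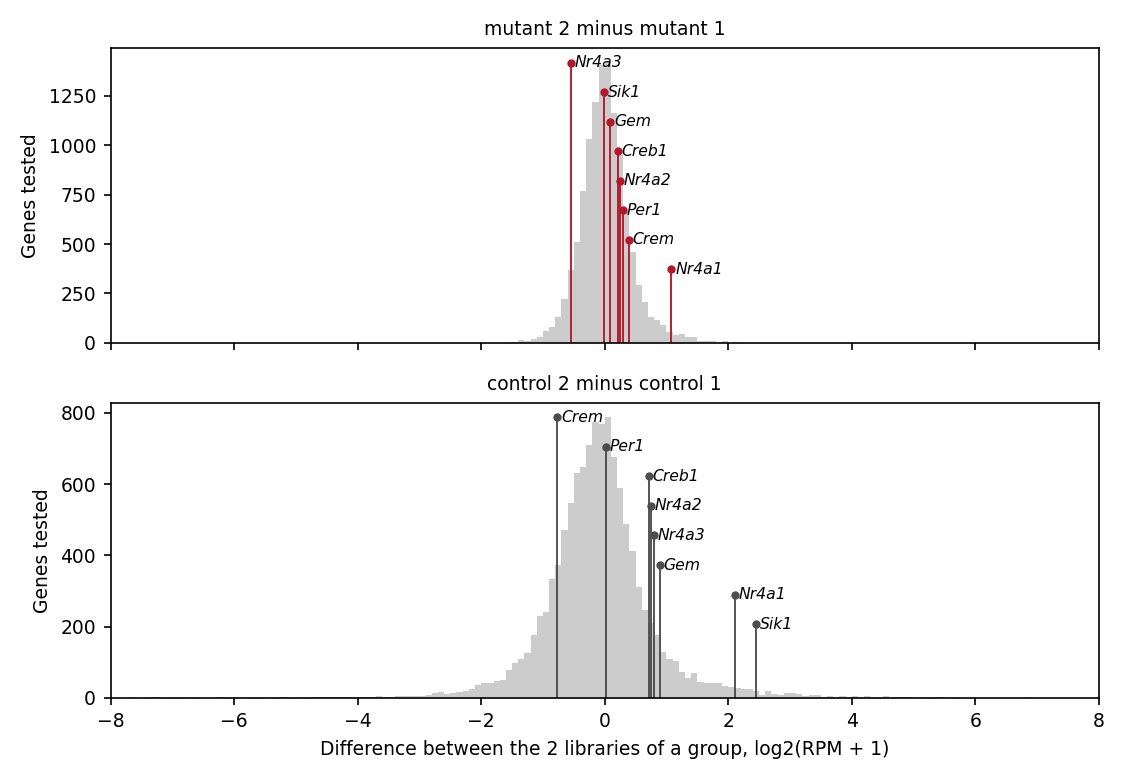
Difference between the 2 libraries of a group on log2(RPM + 1): mutant 2 minus mutant 1 above, control 2 minus control 1 below, with all 11638 tested genes as grey histograms and the 8 tested CREB-responsive and NR4A genes as lines, whose height carries no value. Sik1 and Nr4a1 lie in the right tail between the controls at 2.45 and 2.11, and Nr4a1 alone among the 8 lies past 1 between the mutants, at 1.08.

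Other rapidly induced genes were mixed in how they differed between the libraries of a group. The immediate early factors Fos and Egr1, chosen after their values were seen, were higher in mutant 2 than in mutant 1 and in control 2 than in control 1. Fos stood at 6.82 and 28.8 RPM in the mutants, against 11.1 and 32.4 RPM in the controls (limma adjusted p = 0.833). Egr1 stood at 111 and 345 RPM in the mutants, against 143 and 294 RPM in the controls (limma adjusted p = 0.968). Nr4a1, Nr4a2, Dusp1, Junb and Rasd1 had the same order. Between the mutants Nr4a3, Sik1, Ptgs2, Hbegf and Fosb (1.2 RPM in mutant 1 and 1.08 RPM in mutant 2) did not. Dusp1, Junb, Rasd1, Hbegf and Fosb were also chosen after their values were seen. For Nr4a1 97.6% of tested genes had mutants that were closer together. Replicate numbers are not said to mark a shared day or animal.

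Genes that work with the CREB-responsive set were grouped into 8 lists. Of 7 tested CREB factors and coactivators 0 rose and 0 fell. Crtc1, a coactivator of CREB, was nearest, at 24.1 and 24.7 RPM in the mutants and 13.2 and 11.9 RPM in the controls (log2 fold change 0.91, limma adjusted p = 0.174). The same list held Crebbp (0.42, limma adjusted p = 0.505) and Atf1 (-0.34, limma adjusted p = 0.528), and its median log2 fold change was 0.34. Of 3 tested kinases around Sik1 none passed: Sik3 had a log2 fold change of -0.50 (limma adjusted p = 0.288), Stk11, the kinase that activates SIKs, 0.48 (limma adjusted p = 0.331) and Sik2 -0.19 (limma adjusted p = 0.826). Retinoid X receptors pair with Nr4a1 and Nr4a2 on DNA. Rxra stood at 365 and 364 RPM in the mutants and 228 and 192 RPM in the controls (log2 fold change 0.80, limma adjusted p = 0.146, DESeq2 adjusted p = 0.0419). Rxrb had a log2 fold change of -0.16 (limma adjusted p = 0.74), and Rxrg had no read in any library.

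The lists around Per1, Areg, Gem and Ppargc1a also had 0 genes past the threshold with limma, while DESeq2 called Ereg and Erbb2. Among 10 clock genes the smallest p belonged to Nr1d1, which encodes a repressor in the second loop of the clock. It stood at 33 and 31 RPM in the mutants, against 50.9 and 73.3 RPM in the controls (log2 fold change -0.91, limma adjusted p = 0.177). Per3 (0.83, limma adjusted p = 0.363) and Per2 (-0.62, limma adjusted p = 0.384) had fold changes of opposite sign on the same log2 scale. Of 6 tested EGF ligands and receptors, the receptor gene Erbb2 was nearest, at 58.6 and 80.5 RPM in the mutants and 32.9 and 32.1 RPM in the controls (log2 fold change 1.06, limma adjusted p = 0.12, DESeq2 adjusted p = 0.0327). Ereg, which encodes the ligand epiregulin, shared the pattern of Areg. It stood at 11.7 and 4.65 RPM in the mutants, against 13.2 and 128 RPM in the controls (limma adjusted p = 0.343, DESeq2 adjusted p = 0.00859). Hbegf, chosen after its values were seen, stood at 8.02 and 7.27 RPM in the mutants and 9.21 and 46.3 RPM in the controls. For Areg, Ereg and Hbegf alike, control 2 was the highest library. For the ligand genes Nrg1, Tgfa, Epgn and Egf it was not. Nrg1 had its lowest value there, at 25.1 and 22.9 RPM in the mutants and 35.1 and 6.75 RPM in the controls. Tgfa and Epgn did not reach the filter and, like Egf, had both mutants above both controls. Nrg1, Tgfa and Epgn were also chosen after their values were seen. Egf had a log2 fold change of 0.86 (limma adjusted p = 0.343).

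Of 2 tested relatives of Gem, Rrad stood at 17 and 15.1 RPM in the mutants and 10.3 and 8.75 RPM in the controls (log2 fold change 0.69, limma adjusted p = 0.303), and Rem1 had a log2 fold change of 0.06 (limma adjusted p = 0.977). Rrad had both mutants above both controls, as 30.6% of all tested genes had. Of 5 tested PGC1 coactivators and partners, Ppargc1b (-0.68), Pprc1 (0.15) and Nrf1 (0.06) had the smallest unadjusted p, with limma adjusted p of 0.535, 0.763 and 0.936.

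A wider list of 26 genes that cyclic AMP can induce, of which 23 were tested, held 1 gene that rose and 4 that fell, where 1.73% of all tested genes rose and 0.576% fell. Its median log2 fold change was -0.48, beside 0.08 over all genes tested. The list was drawn up with earlier results of these data known, so neither its calls nor its median tests a response of such genes. Pde3b and Pde4b encode phosphodiesterases, enzymes that break cyclic AMP down. Pde3b fell to 3.61 and 2.9 RPM in the mutants, against 36.4 and 37.3 RPM in the controls (log2 fold change -3.16, SE 0.29, limma adjusted p = 0.0211). Pde4b fell to 3.15 and 1.89 RPM in the mutants, against 17.6 and 35 RPM in the controls (limma adjusted p = 0.0491, and from 2.77e-07 to 0.637 over the alternatives). Ptgs2, the inducible enzyme of prostaglandin synthesis, fell to 23.8 and 23 RPM in the mutants, against 92.4 and 169 RPM in the controls (limma adjusted p = 0.0401). For these 3 genes the mutants were all below the lower control. Of the 10 alternatives that kept every library, 10 also called Pde3b, 7 Ptgs2 and 3 Pde4b.

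Star, which moves cholesterol into mitochondria, and the opioid precursor gene Penk moved in opposite directions. Star fell to 2.29 and 1.41 RPM in the mutants, against 95.8 and 154 RPM in the controls. Penk rose to 2466 and 1637 RPM in the mutants, against 2.44 RPM in control 1 and no read in control 2. Both had a limma adjusted p of 0.0176. Star was called in all 10 alternatives that kept every library and Penk in 9, the exception being edgeR (adjusted p = 0.0578). Cebpb (-1.28, limma adjusted p = 0.0643), Pde7b (-1.53, limma adjusted p = 0.0948) and Pde10a (-1.18, limma adjusted p = 0.109) did not pass, each with both mutants below both controls, as in 21.1% of all tested genes. DESeq2 called all 3 (adjusted p = 9.13e-06, 0.00294 and 0.00132 in that order). Of the 10 alternatives that kept every library, 3 called Cebpb, as many as called Pde4b. Leaving out either mutant library ended all 5 calls, as it did every call in the table. Such a fit takes a gene's own spread from the 2 controls alone. Of the 26 genes 19 had a promoter window. At least 1 CRE core was held by 14 of the 19 in any of their windows, and none held 4. Among all mouse windows 20.8% held at least 1 core. That share is per window, while some of the 19 genes had several windows, so it cannot be set directly against the count of genes. Of the 5 called genes only Pde4b and Ptgs2 had a window. Pde4b held 1 core at 34 bases before a start in 1 of its 4 windows, and Ptgs2 held 1 that began at base 14 of the transcript.

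**Figure D5:**
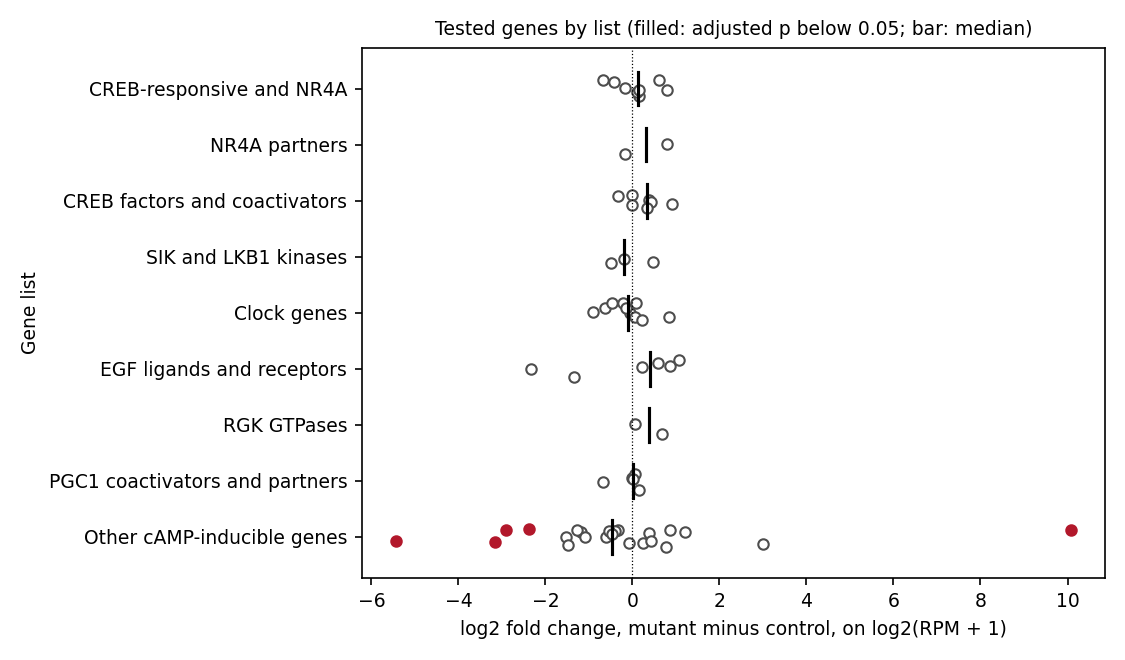
log2 fold change, mutant minus control, on log2(RPM + 1) for each tested gene (points), by list, with filled points for limma adjusted p below 0.05 and bars for medians. Filled points appear only in the wider cyclic AMP list, 4 left of 0 and Penk at 10.08 on the right.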

How the data were processed

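The deposited table gives 1 column of RPM per library. Per the labels' protocols, libraries were made with an Ion AmpliSeq mouse transcriptome panel. The authors scaled the reads of each amplicon to a total that is equal in all libraries, as the deposited RPM sums show. Aligner, counter and genome build: not given in the sources used here. Symbols were taken from amplicon names, because 27 gene names differed from them. Low RPM values are multiples of a fixed step, and 100% of the non-zero values gave whole reads within 0.05 read.

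The 11638 genes that reached 1 RPM in 2 or more libraries entered limma 3.58.1 in R 4.3.3 (trend, two-sided) on log2(RPM + 1), with Benjamini-Hochberg adjustment over all of them and a threshold of 0.05. Fold changes on this scale understate the change of low genes. In simulated reads 97 of 100 genes changed by 3 log2 units were recovered, with 20 calls among 11438 unchanged genes. The changed genes all averaged 10 RPM or more, both groups had the same simulated spread, and changes below 3 log2 units were not simulated. The recovery therefore does not cover low genes or changes as small as those of the set. Alternatives were other pseudocounts, filters and scalings, a fit without the trend, the replicate number as a block, leaving out each library, and edgeR 4.0.16 and DESeq2 1.42.0 on whole reads, which called 93 and 1091 genes. Intervals of single values are exact Poisson intervals and cover counting error only. Named were the 10 genes and, of each list, every gene past the threshold and up to 3 more with the smallest p. Fos, Egr1, Fosb, Dusp1, Junb, Rasd1, Hbegf, Nrg1, Tgfa, Epgn, Rgs2 and Btc were named beyond this rule after their values were seen, and Rxrg because it had no read. Col1a1 and Lyz2 were named as the highest markers of their lists. The genes and lists were chosen with earlier results of these data known. Gene positions are from GENCODE M21 (GRCm38) and promoters from RefSeq (GRCm38.p6). Tables were made in Python 3.11.15 (pandas 2.3.3, numpy 2.4.6, scipy 1.17.1), plots in matplotlib 3.10.9.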

Additional observations from a re-analysis of the deposited data

How the results depend on the processing

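With 2 libraries per group, no gene of the set passed the threshold in any of the 10 alternatives that kept every library (Nr4a2, Nr4a3 and Crem were not tested with a filter of 5 RPM). Leaving out 1 library gave 0 to 1 genes higher (Gem without control 2) and 0 to 1 lower (Sik1 without control 1) among them. Over all genes 201 were higher and 67 lower, and leaving out 1 library gave 0 to 1609 higher and 0 to 802 lower. With no filter 56 were higher and 18 lower, with edgeR 66 and 27, and with DESeq2 598 and 493. The replicate block gave 301 higher and 123 lower. Same-numbered libraries deviated together weakly (r = 0.164 across genes) and the labels pair none, and the block called none of the set. Over the 8 lists around the set 1 gene was higher and 4 lower. The number higher was 2 with the replicate block, 0 with edgeR and 4 with DESeq2, and the number lower was 2 with no filter, 2 with no trend, 2 with edgeR and 8 with DESeq2. Leaving out 1 library gave 0 to 7 higher and 0 to 14 lower. A fit without 1 library takes each gene's own spread from the group that kept 2 libraries. Over all tested genes the median distance between replicates was 0.23 between the mutants and 0.43 between the controls, on log2(RPM + 1). The part of this in the shifts, and the cause of the other shifts, was not tested.

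Log2 fold changes of a sign opposite to the main comparison were all uncalled. The ranges below also hold values that kept their sign. Leaving out 1 library gave -1.22 to 0.88 for Nr4a1, -0.25 to 0.55 for Nr4a3, -0.25 to 0.46 for Creb1, -1.65 to 0.80 for Sik1, -0.53 to 0.15 for Sik2, -0.87 to 0.98 for Rem1 and -0.16 to 0.28 for Nrf1. Nr4a1 was 0.88 without control 2 and 0.37 without mutant 1, and Nr4a3 was -0.12 without mutant 1. Creb1 was -0.02 with edgeR and -0.04 with DESeq2. Rem1 was -0.05 with a pseudocount of 5, -0.37 with edgeR and -0.36 with DESeq2, and -0.13 without mutant 2. Nrf1 was -0.01 with TMM scaling, -0.03 with median-of-ratios scaling, -0.01 with edgeR, -0.02 with DESeq2 and -0.14 without mutant 1. Depth limited Areg, Nr4a3 and Ppargc1a, which rested on 3 to 31 reads in every library but control 2 of Areg.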

Other observations

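Rgs2 did not pass with limma in the main comparison and Btc was not tested there, and both were chosen after their values were seen. Rgs2, which encodes a brake on G protein signalling that cyclic AMP can induce, stood at 61.2 and 65.7 RPM in the mutants, against 2.76 and 16 RPM in the controls (log2 fold change 3.01, limma adjusted p = 0.121). Both mutants were above both controls, as in 30.6% of all tested genes, and the opposite order to Pde3b and Pde4b. Btc, which encodes the EGF receptor ligand betacellulin, did not reach the filter. It had 1 read in each mutant and 14 and 42 reads in the controls, with control 2 the highest library, as for Areg.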
